A study of Arabidopsis thaliana with 15 samples.

Results

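Brassinosteroids are plant steroid hormones that bind receptor kinases of the BRI1 family at the cell surface and act on gene expression through the transcription factors BZR1 and BES1. In roots they control cell elongation, cell wall remodelling and vascular development, and the stele, the central cylinder of the root, holds cells with their own receptor paralogs. A transcript that climbs through a hormone course can be an early target that accumulates, or one that answers late. The 72 probe sets described here were picked for such a course in stele cells, out of 22746 on the array that are not controls. Their group means of log2(signal + 16) were higher at every step, in the order untreated, 0.5 h, 1 h, 2 h and 4 h of brassinolide (BL), the 4 h mean exceeded the untreated mean by at least 1, and the detection call was present on both 4 h arrays. A log2 difference of 1 is a 2-fold difference of signal plus offset. They were thus chosen by the WOL signals themselves. In the probe annotation 39 of the 72 pair with a single gene and 1 pairs with several, while 32 lack a listed gene and are called by their probe set number.

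Transcripts of Arabidopsis thaliana were measured on 15 Affymetrix ATH1 arrays, with protoplasts sorted from primary roots of 6-day-old seedlings. Stele cells carrying pWOL:GFP were collected untreated and after 0.5, 1, 2 and 4 h on MS plates with 10 nM BL, with 2 arrays, lettered A and B, in each of these 5 groups (called WOL here). Provascular cells carrying pAtHB15:YFP were collected after 2 h of 10 nM BL on 2 arrays and untreated on 3 arrays (called ATHB15 here). WOL is a cytokinin receptor gene and ATHB15 an HD-ZIP III transcription factor gene, and their promoters drive the fluorescent proteins, so each group holds the cells in which that promoter was active and which survived wall digestion and sorting. The labels name no mock transfer for each time and do not say whether arrays come from separate plantings, so a p-value measures the spread between arrays, which may be technical. In such pooled RNA, fewer cells of a type and less RNA per cell cannot be told apart.

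The deposited signals of all arrays share a trimmed mean of 250, and 49.5% to 59.6% of probe sets were called present per array. The number of arrays limits the precision of each value. The stele gene LHW, the single measured gene of a 9-gene stele list, was called present on all 15 arrays, and the ground tissue gene JKD was absent on all 15. The phloem gene OPS was present on 5 of 10 WOL arrays. No gene of the 7-gene xylem list or the 4-gene root cap list could be named on the array. The epidermal expansins EXPA7 and EXPA18, the measured genes of an 8-gene list, had a summed signal of 264.7 to 647.6 at 4 h and 166.3 to 598.7 in WOL controls, against 10.2 to 110.5 in ATHB15 controls, and were called present on 9 and 8 of the 10 WOL arrays. None of these markers is among the 72.

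Over the 72 probe sets, the median difference from the WOL control stood at 0.62 after 0.5 h of BL, 0.81 after 1 h, 1.01 after 2 h and 1.32 after 4 h. The 4 h differences ran between 1.00 and 2.48. The medians over all 22746 probe sets at the same times were -0.08, -0.09, -0.11 and -0.05. These differences chose the probe sets and are given as a description, with no test. In limma fits across all probe sets, 0 were called at 4 h of BL against WOL control at an adjusted p under 0.05 (0% of those tested), and 1903 had an unadjusted p under 0.05.

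The course was not even. The largest step was that from control to 0.5 h for 44 probe sets, to 1 h for 4, to 2 h for 6 and to 4 h for 18. At 0.5 h the median probe set had already covered 41.4% of its 4 h difference, at 1 h 58.0% and at 2 h 75.2%. Many of the intermediate steps were small: 38 of the 72 had at least 1 step under 0.1, and the smallest step of any was 0.000193. Among the probe sets nearest the threshold, the NDR-type kinase gene AT1G30640 had a 4 h difference of 1.00094, with 449 and 178 at 4 h, against 154 and 117 in the controls. The chaperone gene AT1G77020 had a difference of 1.00449, with 629.6 and 1309 at 4 h, against 519 and 381 in the controls. For the histone H2B gene AT3G53650 it was 1.01004, with 208 and 192 at 4 h, against 69.8 and 118 in the controls. In all 3 the 4 h arrays were above both controls. Just outside, and meeting the rest of the rule, lay 266891_at at 0.998, with 299.9 and 254 at 4 h, against 170.2 and 98.8 in the controls. AT5G54940 was at 0.989 (9125 and 4352 at 4 h, against 4062 and 2469.7 in the controls) and AT2G35880 at 0.978 (1289.9 and 1656 at 4 h, against 933 and 577 in the controls). In all, the group means of 267 probe sets rose at every step (1.17%), and 177 of these were present on both 4 h arrays.

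**Figure D1:**
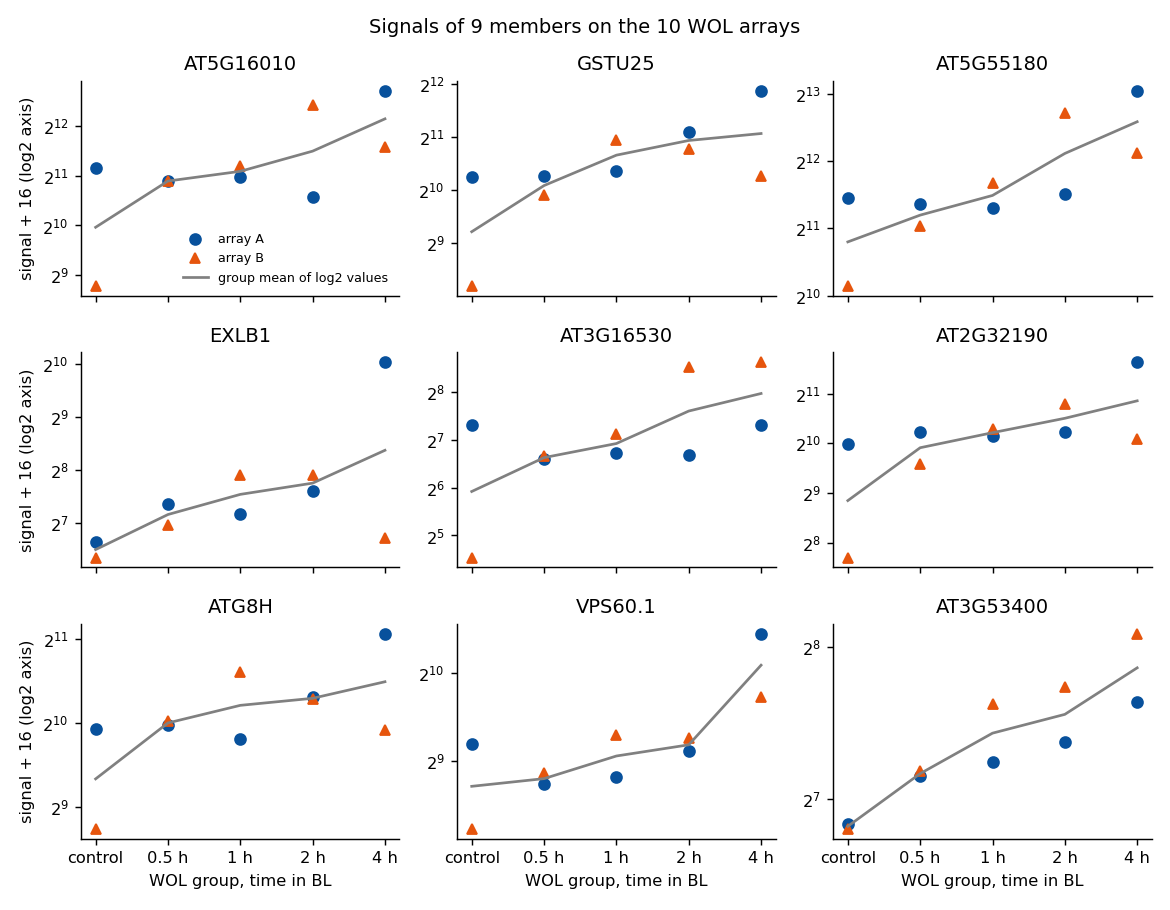
Signal + 16 on a log2 axis (vertical) of 9 of the genes on WOL arrays A and B, untreated and after 0.5, 1, 2 and 4 h of BL (horizontal axis), with grey lines through the group means of the log2 values. Control B is the lower control array in all 9 panels, and AT3G53400 is the gene in which both letters climb at every step.

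The arrays within a group differed more than the means show. For 70 of the 72 probe sets the signal on WOL control B was below that on WOL control A, with a median difference, A minus B, of 1.43 on the log2 scale, while the median over all probe sets was -0.08. For 68 the signal on 4 h array A was above that on 4 h array B, by a median of 1.23, against -0.01 over all probe sets. The median SD between both arrays of a group was, for these probe sets, 1.01 in the control, 0.13 after 0.5 h of BL, 0.34 after 1 h, 0.33 after 2 h and 0.91 after 4 h. Over all probe sets it was 0.42 at 4 h and 0.32 in the control. The low control array and the high 4 h array therefore carry much of the course.

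On the A arrays alone, 7 of the 72 were higher at every step, where 0.972% of all probe sets were. On the B arrays alone, 8 were, where 0.576% of all were. On both letters only 2 were, AT3G53400 and AT5G09960, out of 5 on the whole array (0.022%). On the A arrays 27 of 72 were higher at 0.5 h than in the control and 70 were higher at 4 h than at 2 h. On the B arrays 72 were higher at 0.5 h than in the control and 18 were higher at 4 h than at 2 h. The low control B and the high 4 h array A enter these counts. Arrays of the same letter were not treated as pairs, so no timing by letter is read from them. The label of a steady course thus describes the group means and not the single arrays, except for those 2 genes. The end points still pointed the same way on each letter, since 4 h minus control was above 0 for all 72 on the A arrays (median 1.37) and on the B arrays (median 1.42), a direction that the choice of probe sets favours.

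**Figure D2:**
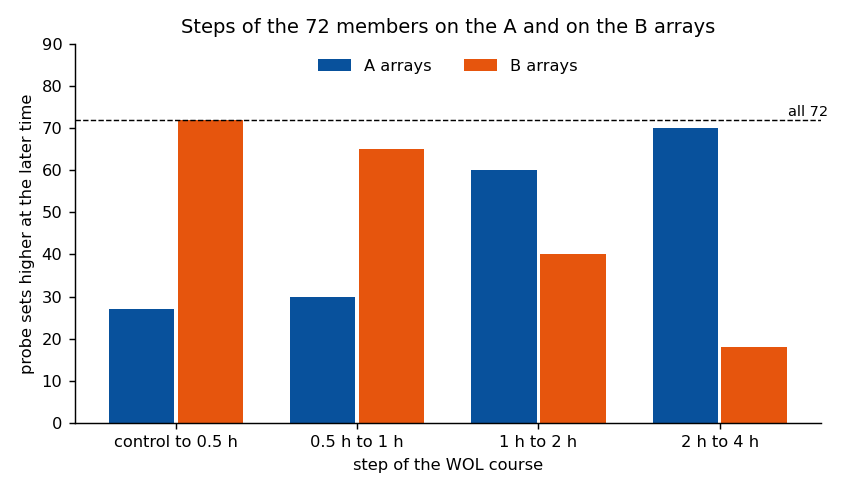
Number of the 72 probe sets whose signal was higher than at the time before (vertical axis) for each of the 4 steps (horizontal axis), on the A arrays and on the B arrays. The A arrays give 27, 30, 60 and 70, and the B arrays 72, 65, 40 and 18.

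Both 4 h arrays lay above both WOL controls for 39 of the 72 (54.2%). Over all probe sets that share was 13.1%, but the contrast is the one that chose the 72, so nothing is read from it. The corresponding numbers were 13 at 0.5 h, 24 at 1 h and 38 at 2 h. Without WOL control B the median 4 h difference was 0.69, and 18 of the 72 were at or above 1. Without 4 h array A it was 0.78, and 22 were at or above 1. Between the remaining pair, 4 h array B minus control A, which crosses the letters, the median was 0.04, and 39 of the 72 were above 0.

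Array measures differed between these arrays. The GAPDH 3′ to 5′ signal ratio, which rises as RNA is less complete, was 2.71 and 4.66 on WOL controls A and B, 1.24 to 2.23 at 0.5 and 1 h, 1.91 and 2.85 at 2 h, and 3.33 and 3.84 at 4 h. It was thus high both on control B, where the 72 were low, and at 4 h. The UBQ 3′ to 5′ ratio was 5.07 and 7.43 on controls A and B, and 4.42 and 6.4997 at 0.5 h. It was 4.62 and 2.91 at 1 h, 4.9 and 3.79 at 2 h, and 5.15 and 5.08 at 4 h. Among the B arrays the control had the highest UBQ ratio and the lowest median of the 72 (7.74). The 1 h array B had the lowest ratio, with a median of 9.24. Among the A arrays the 4 h array had both the highest ratio and the highest median (10.50). The share of probe sets called present was 56.9% and 50.8% on controls A and B, 57.8% and 50.9% at 0.5 h, and 58.4% and 57.2% at 1 h. It was 59.1% and 54.7% at 2 h, and 52.99% and 52.7% at 4 h. The epidermal markers, like most of the 72, were higher on array A than on array B within the 4 h and control groups. EXPA7 had signals of 264 and 127 on the 4 h arrays A and B, and 295 and 88.5 on the controls A and B, and EXPA18 had 383 and 138 at 4 h and 304 and 77.8 in the controls. Unlike the 72, EXPA7 was lower on 4 h array A than on control A. At 0.5 h both were higher than in any control, at 525 and 587 for EXPA7 and 681 and 658 for EXPA18. LHW moved the opposite way, with 461 and 914 at 4 h, against 809 and 1737 in the controls. So did the stem cell niche gene BBM, with 16.6 and 95.5 at 4 h, against 172 and 320.4 in the controls. The pericycle and lateral root genes LBD16 and LBD29 were higher on array A than on array B within both groups. LBD16 had 404 and 158 at 4 h, against 431 and 216 in the controls. The dim LBD29 had 99.9 and 3.5 at 4 h, against 75.1 and 34.6 in the controls. Their 4 h differences were -0.25 and -0.51. The part of RNA quality and of other cell types in the course was not tested.

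**Figure D3:**
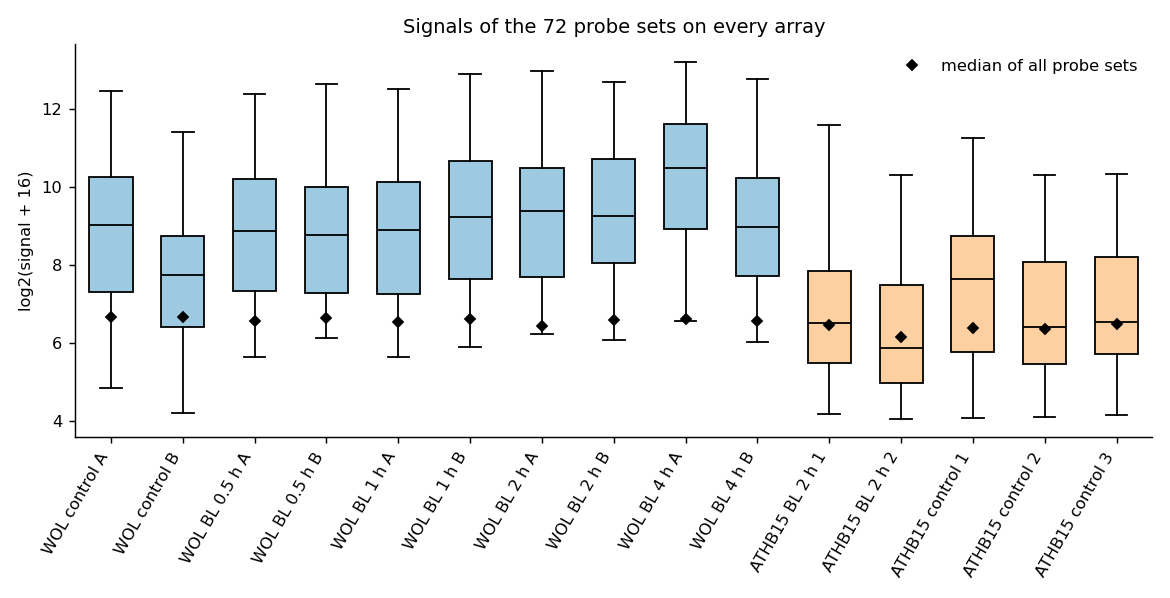
Log2(signal + 16) (vertical axis) of the 72 probe sets on each of the 15 arrays (horizontal axis). Boxes span the quartiles, the line in each is the median, whiskers reach the lowest and highest value, and diamonds are the median of all 22746 probe sets. The median of the 72 is 10.50 on 4 h array A and 8.98 on 4 h array B, 9.02 and 7.74 on WOL controls A and B, and 5.87 to 7.64 on the ATHB15 arrays.

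The genes with detoxification and redox functions numbered 5. AT5G16010 (246488_at) belongs to the steroid reductase family that also holds the brassinosteroid synthesis enzyme DET2, and it had the largest 4 h difference of the single-gene set, 2.19. Its signals were 2260.5 and 422 in the controls, 1885 and 1896 at 0.5 h, 2013 and 2335 at 1 h, 1506 and 5496 at 2 h, and 6719 and 3058 at 4 h. Both 4 h arrays were above both controls, while 2 h array A was the lowest of the treated arrays. GSTU25 (262517_at), a tau-class transferase that attaches glutathione to reactive compounds, had 1194 and 276 in the controls, 1209 and 946 at 0.5 h, 1302 and 1959.9 at 1 h, 2167 and 1733 at 2 h, and 3719.5 and 1209.7 at 4 h, a difference of 1.85. Its 4 h array B lay only just above control A. The class III peroxidase gene AT5G06730 (250702_at) had 90 and 2.5 in the controls, 82 and 54.6 at 0.5 h, 112 and 43.7 at 1 h, 88.5 and 109 at 2 h, and 195 and 98.5 at 4 h (difference 1.81), with control B called absent. AT4G19880, a glutathione transferase family gene, and AT4G30470, related to cinnamoyl-CoA reductases of phenylpropanoid synthesis, had differences of 1.16 and 1.13. The 4 h arrays of AT4G19880 overlapped the controls and those of AT4G30470 did not.

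Of the 3 cell wall genes, EXLB1 (245463_at), an expansin-like B gene, had the steepest final step. Its signals were 84.5 and 65.5 in the controls, 148 and 109 at 0.5 h, 129 and 224 at 1 h, 178 and 223 at 2 h, and 1031 and 88.8 at 4 h. The 4 h difference of 1.87 rests on array A, since 4 h array B was barely above the controls, and without array A it was 0.21. AT5G55180 (248100_at) encodes a family 17 glycosyl hydrolase, a group that holds enzymes cutting beta-glucans. It had 2798 and 1113 in the controls, 2622 and 2075 at 0.5 h, 2502 and 3269 at 1 h, 2917 and 6682 at 2 h, and 8436 and 4453 at 4 h. Here both 4 h arrays were above both controls and the difference was 1.79. The dirigent-like gene AT3G13650, of a family that guides lignan and lignin coupling, had 961 and 334 in the controls, 919.6 and 954 at 0.5 h, 1087 and 1260.2 at 1 h, 1410.1 and 1342 at 2 h, and 2065 and 938 at 4 h (1.27), and 4 h array B fell between the controls.

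The 7 genes of families known from stress responses spanned 1.00 to 2.05, with a median of 1.53. AT3G16530 (257206_at), a legume lectin family gene, had 142 and 7.2 in the controls, 80.8 and 85.7 at 0.5 h, 89.6 and 124 at 1 h, 87.1 and 354 at 2 h, and 144 and 381 at 4 h. The A arrays of control and 4 h were nearly equal and the difference of 2.05 came from the B arrays; without control B it was 0.67. AT2G32190 (265674_at) encodes a small cysteine-rich transmembrane module protein and had 1006 and 194 in the controls, 1186 and 759 at 0.5 h, 1115 and 1234 at 1 h, 1183 and 1744 at 2 h, and 3149 and 1066 at 4 h. Its difference was 2.00 and both 4 h arrays were above both controls. AT1G05340, of the same protein family, had 3048 and 1044 at 4 h, against 1298 and 478 in the controls (1.16), so its groups overlapped.

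The Nod19-like gene AT5G61820 had 2768 and 704 in the controls, 2447 and 2444 at 0.5 h, 2142 and 3334 at 1 h, 3337 and 2946 at 2 h, and 8575 and 2106 at 4 h (1.59). The late embryogenesis abundant family gene AT3G02480 had 151 and 85.3 in the controls, 188 and 172 at 0.5 h, 171 and 328 at 1 h, 217 and 315 at 2 h, and 651 and 196 at 4 h (1.53). Of this pair, only AT3G02480 had both 4 h arrays above both controls. The hypoxia-responsive family gene AT5G27760 and the DnaJ chaperone gene AT1G77020 had differences of 1.08 and 1.00.

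Of the 4 genes of trafficking and lipids, AT4G39670, a glycolipid transfer protein family gene, had 388 and 69.9 in the controls, 302 and 236 at 0.5 h, 249.8 and 589.5 at 1 h, 318 and 582 at 2 h, and 816 and 304 at 4 h (1.47). VPS60.1, an ESCRT-III related gene of endosomal sorting, had 569.5 and 281 in the controls, 409 and 446 at 0.5 h, 433 and 612 at 1 h, 534 and 595 at 2 h, and 1387 and 834 at 4 h (1.39). It was the only gene of this group with both 4 h arrays above both controls, and 6.35% of its 4 h difference was present at 0.5 h. ATG8H, a ubiquitin-like protein of the autophagosome membrane, had 2118 and 949.9 at 4 h, against 958 and 411 in the controls (1.15). AT4G24160, a lysophosphatidic acid acyltransferase gene, had a difference of 1.08.

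The 7 signalling and regulatory genes lay between 1.00 and 1.34. AT5G61890, an ERF-family transcription factor gene, had 392 and 97.3 in the controls, 358 and 243 at 0.5 h, 334 and 261 at 1 h, 263 and 501 at 2 h, and 754 and 366 at 4 h (1.34). The leucine-rich repeat receptor-like kinase gene AT1G53430 had 329 and 85.7 at 4 h, against 144 and 22.9 in the controls (1.25). In both genes 4 h array B lay between the controls. AT1G53400, a ubiquitin domain gene, had 441 and 326 in the controls, 403 and 407 at 0.5 h, 590.3 and 504 at 1 h, 792 and 571 at 2 h, and 1120.1 and 752 at 4 h (1.24). It was one of the more even courses, with both 4 h arrays above every other WOL array except 2 h array A. The GARP-family transcription factor gene AT1G25550 and the receptor-like kinase gene AT1G61360 had differences of 1.04 each, the U-box gene AT3G61390 of 1.10.

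Among other enzymes, the phosphoglycerate mutase family gene AT1G08940 had 260.5 and 67.2 in the controls, 259.9 and 166 at 0.5 h, 233 and 319 at 1 h, 226 and 352 at 2 h, and 817 and 237 at 4 h (1.60). In this gene 4 h array B lay between the controls. AT1G21670 had 325 and 203 in the controls, 396 and 318 at 0.5 h, 324 and 512 at 1 h, 474 and 353 at 2 h, and 1382 and 406 at 4 h (1.49). The serine hydrolase family gene AT4G24380 had 3733 and 1664 in the controls, 3713 and 3698 at 0.5 h, 3392 and 4632 at 1 h, 3787 and 4877 at 2 h, and 9348 and 4431 at 4 h (1.36). Its control A and both 0.5 h arrays were nearly equal. The AAA-type ATPase gene AT1G43910 had 1159 and 252 in the controls, 1163 and 845 at 0.5 h, 1226 and 989 at 1 h, 1328 and 1049.5 at 2 h, and 1881 and 1034 at 4 h (1.33). The spliceosomal helicase gene AT2G42270 had a 4 h difference of 1.18.

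Among genes with no role given here, AT3G43250 had 60.6 and 49.5 in the controls, 97.3 and 94.6 at 0.5 h, 70.6 and 131 at 1 h, 59.2 and 307 at 2 h, and 332 and 151 at 4 h (1.77). AT1G05575 had 588 and 94.7 in the controls, 388 and 382 at 0.5 h, 339.8 and 501 at 1 h, 520.1 and 515 at 2 h, and 1399.7 and 480.1 at 4 h (1.70). AT1G75860 had 1255 and 453 in the controls, 1070.0 and 1011 at 0.5 h, 899.7 and 1469.6 at 1 h, 1231 and 1565 at 2 h, and 2775 and 1395 at 4 h (1.36). The groups of AT1G05575 overlapped and those of the other two did not. The genes whose signal was higher at every step on both letters had modest differences. AT3G53400 (251937_at) had 98.4 and 95.6 in the controls, 126 and 129 at 0.5 h, 136 and 181 at 1 h, 150.0 and 198 at 2 h, and 183 and 256 at 4 h (1.04). AT5G09960 (250511_at) had 436 and 314 in the controls, 508 and 474 at 0.5 h, 509 and 607 at 1 h, 699.7 and 641 at 2 h, and 811 and 722 at 4 h (1.02). In these 2 genes the letters differed by up to 0.45 (AT3G53400) and 0.46 (AT5G09960) within a group, beside courses of 1.04 and 1.02.

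The 33 probe sets without a single gene had 4 h differences of 1.04 to 2.48, and 15 of them had both 4 h arrays above both controls. The highest of all 72 was 257641_s_at, with 1309.9 and 282 in the controls, 970.0 and 964 at 0.5 h, 955 and 1987 at 1 h, 1025 and 3786 at 2 h, and 4329.5 and 2801 at 4 h. Next came 246099_at, with 2274 and 1195 at 4 h, against 579.5 and 140.0 in the controls (2.45). Both had their 4 h arrays above both controls. At the other end, the difference of 258059_at was -0.21 without 4 h array A.

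Provascular cells had not been used in the choice of the probe sets, so 2 h of BL in ATHB15 cells gives a comparison that is open to a test. The direction of most of the 72 was the opposite one there: 53 were lower and 19 higher in BL than in control cells, a share of 73.6% lower, where 52.3% of all probe sets were lower. Their median difference, BL minus control, was -0.44, against -0.03 over all probe sets, and it ran between -2.26 and 3.84. In limma with Benjamini-Hochberg adjustment over all probe sets, 1 of the 72 was called (1.39%), where 253 of all probe sets were called (1.11%). At an unadjusted p under 0.05 there were 20 (27.8%), where 13.7% of all were, and 19 of these were lower (26.4%), where 7.57% of all were. Both BL arrays lay below all 3 controls for 22 probe sets (30.6%), where 16.2% of all did, and above all 3 for 3 (4.17%), where 15% of all did. The other 47 overlapped. For 13 probe sets (18.1%) all BL arrays were below the ATHB15 controls and both 2 h WOL arrays above the WOL controls, where 2.92% of all were, but the WOL side of that count is favoured by the choice of the 72.

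**Figure D4:**
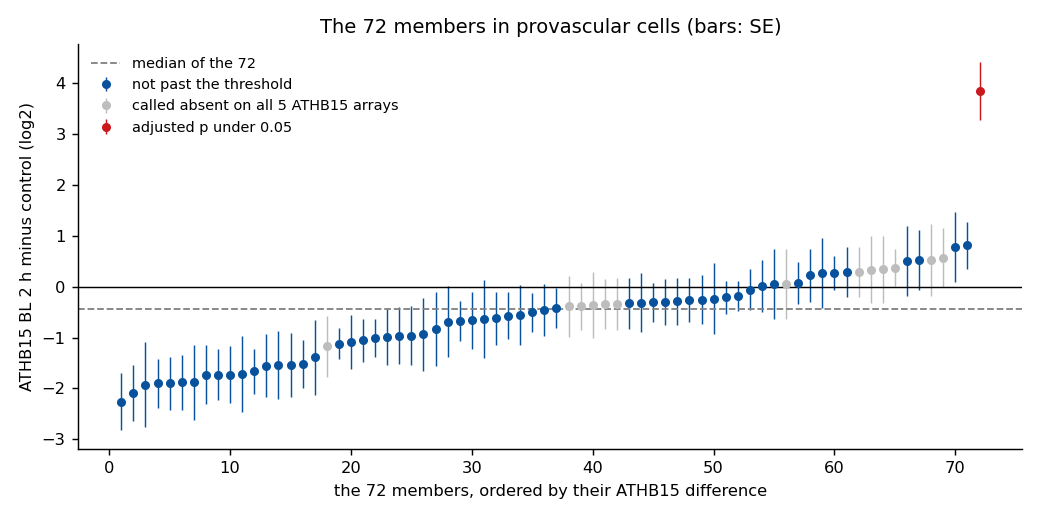
ATHB15 BL 2 h minus control in log2(signal + 16) units (vertical axis) for the 72 probe sets in order of that difference (horizontal axis), with bars for the SE of the limma fit, grey points for probe sets absent on all 5 arrays and a dashed line at the median. The 1 probe set called at an adjusted p under 0.05 stands at 3.84, and 53 of the 72 lie below 0.

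Of the 72, 13 were called absent on all 5 ATHB15 arrays, and their differences have no measured level on either side. Among the other 59, 47 were lower and 12 higher, with a median of -0.64. Over the 15033 probe sets of the array with a present or marginal call on an ATHB15 array, 49.5% were lower and the median was 0.01. The median level of the 72 was 6.51 and 5.87 on the BL arrays, against 7.64, 6.41 and 6.53 on controls 1, 2 and 3, so control 1 was the highest. Without control 1 the median difference was -0.28, with 50 of 72 lower.

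The UBQ 3′ to 5′ ratio, another measure of RNA completeness, was 5.99 and 9.07 in BL cells and 4.01 to 4.85 in controls. With that ratio as a covariate, the median of the 72 was -0.07, the same as that of all probe sets, -0.07, and 42 of the 72 were lower (58.3%), where 55.1% of all were. In that fit 0 of the 72 and 1 of all probe sets were called. The lower median of the 72 relative to the array was thus not seen once this ratio was in the model. Both BL arrays had a higher UBQ ratio than every ATHB15 control, so the ratio and BL changed together between these groups. The fit separates them only through the spread within groups, taken over all 15 arrays. That spread includes WOL controls A and B, with UBQ ratios of 5.07 and 7.43, whose signals helped to choose the 72. Between the ATHB15 BL arrays, the one with the ratio of 9.07 had the higher median of the 72, 6.51 against 5.87. No conclusion on ATHB15 cells is therefore drawn from this fit. With the GAPDH ratio as covariate instead, the median of the 72 was -0.60, against 0.02 over all probe sets. In that fit 58 of the 72 were lower.

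The called probe set, 251942_at, has no gene listed. Its signals were 484 and 205 in ATHB15 BL cells, against 0.9, 23 and 3 in ATHB15 control cells, where all 3 arrays were called absent. It was at least 9.87-fold higher in BL cells, counting the control arrays at the lowest signal called present on each, and the fitted log2 difference was 3.84 ± 0.56 (SE, limma adjusted p = 0.00648). The call was lost with the UBQ covariate (adjusted p = 0.27) and without BL replicate 1 (adjusted p = 0.0787), where the differences were 3.34 and 3.25. In WOL cells it had 695 and 324 in the controls, 1366 and 1537 at 0.5 h, 1769 and 1344 at 1 h, 2718 and 874 at 2 h, and 2574 and 1017 at 4 h, so that 90.8% of its 4 h difference was present at 0.5 h. It was the 1 probe set of the 72 higher in BL at an unadjusted p under 0.05.

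The lowest differences in ATHB15 cells did not pass adjustment. The unnamed 257644_at had 118 and 69.1 in BL cells, against 1079, 232 and 479 in control cells (-2.26 ± 0.56 SE, limma adjusted p = 0.0724). The serine hydrolase family gene AT4G24380 had 211 and 118 in BL cells, against 1758, 399.7 and 533 in control cells (-2.09 ± 0.55 SE, limma adjusted p = 0.0869). In both, all BL arrays were below all controls. The unnamed 251035_at had 3 and 10.8 in BL cells, both called absent, against 52.2, 129 and 44.7 in control cells (adjusted p = 0.0776 in limma). Of its 3 control arrays 2 were called absent too. The redox gene AT4G30470 had 208 and 131 in BL cells, against 945, 386 and 471 in control cells (-1.66 ± 0.44 SE, limma adjusted p = 0.0879). AT5G09960, which climbed on both letters in WOL cells, had 138 and 71.5 in BL cells, against 267, 223 and 223 in control cells (-1.12 ± 0.30 SE, limma adjusted p = 0.0933). These 5 had the smallest p-values after 251942_at, and none of their groups overlapped.

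The others among the 5 lowest were 257641_s_at and 257536_at. The probe set 257641_s_at had 20.6 and 0.5 in BL cells, both absent, against 311, 52.3 and 20.2 in control cells, of which 1 was absent. Its groups thus overlapped by 1 array (-1.92, limma adjusted p = 0.316). For 257536_at the signals were 203 and 219 in BL cells, against 1501, 564 and 676 in control cells (-1.90, limma adjusted p = 0.1). At the high end after 251942_at, 249063_at had 3074 and 969.7 in BL cells, against 1624, 864 and 668 in control cells (0.81, limma adjusted p = 0.486). The unnamed 250252_at followed (0.77), with 174 and 74.5 in BL cells, against 131, 27 and 56.1 in control cells. Next were 255266_at (0.57; 32.2 and 1 in BL cells, against 3, 3.1 and 3.9 in control cells) and the lectin gene AT3G16530 (0.52; 31.2 and 1.3 in BL cells, against 2.2, 6.6 and 3.4 in control cells), both absent on all 5 ATHB15 arrays.

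By role, where 52.3% of all probe sets were lower, all 5 detoxification and redox genes were lower in ATHB15 BL cells than in control cells, with a median of -0.69, and all 4 trafficking and lipid genes were, with a median of -0.70. Of the 7 stress responsive genes 6 were lower, with a median of -1.01. Of the 7 signalling genes 6 were lower, with a median of -0.30, and of the 3 cell wall genes 2 were, with a median of -0.29. Of the 4 other enzymes 2 were lower, of the 2 RNA and chromatin genes 1, and of the 7 genes with no role given 5. These counts include 2 stress responsive genes, 1 signalling gene, 1 cell wall gene and 2 genes with no role given that were absent on all 5 ATHB15 arrays. None of the single-gene members passed adjustment in ATHB15 cells. GSTU25 had 195 and 75.9 in BL cells, against 142, 694 and 75.6 in control cells, and ATG8H had 61.6 and 29.7 in BL cells, against 196, 46.1 and 138 in control cells, so the groups of both overlapped. AT2G32190 had 2.4 and 18.7 in BL cells, against 72.9, 61.8 and 69 in control cells, which did not overlap (-1.73 ± 0.57 SE, limma adjusted p = 0.178).

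**Figure D5:**
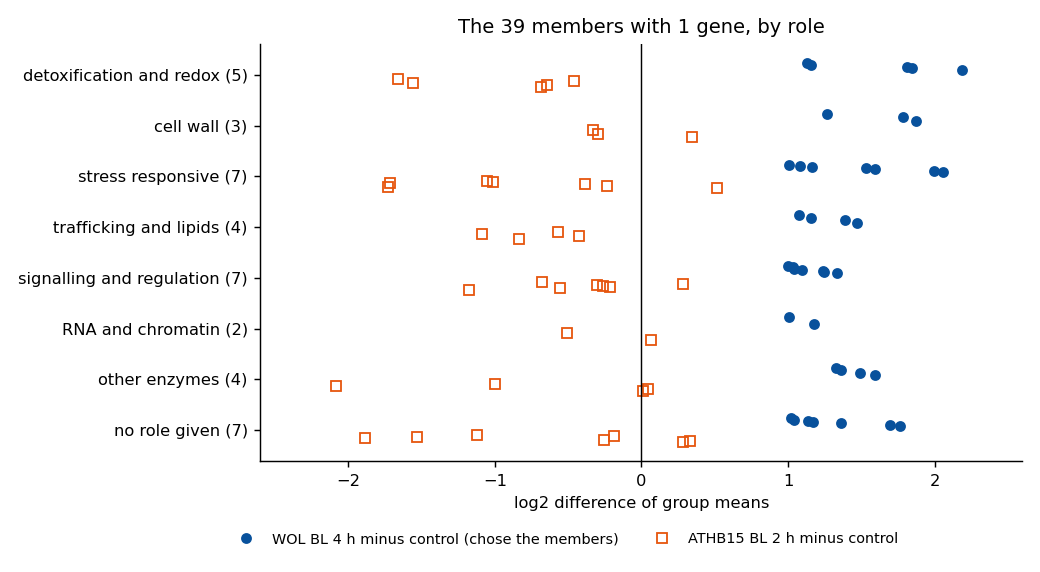
Log2 difference of group means (horizontal axis) for the 39 single-gene members by role group (vertical axis), as circles for WOL BL 4 h minus control, which chose the members, and squares for ATHB15 BL 2 h minus control. All circles lie at or above 1.00, and squares lie on both sides of 0, including genes called absent on all ATHB15 arrays.

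Untreated ATHB15 cells had lower signals of the 72 than untreated WOL cells, with a median difference, ATHB15 control minus WOL control, of -1.14 and 65 of 72 lower. Over all probe sets the median was -0.03. Because WOL control B itself was low for these probe sets, the median was -1.89 against WOL control A and -0.41 against WOL control B. For 48 of the 72, WOL control B lay below WOL control A and above the ATHB15 control mean. Over all probe sets, WOL control B lay between the other 2 values in either order for 39.8%. That share covers both orders, so it is not matched to the 48. All 5 ATHB15 arrays lay below all 10 WOL arrays for 29 of the 72, where 5.28% of all probe sets did. The WOL values that chose the probe sets enter all of these counts, so they are a description with no test. The 29 include the dirigent-like gene AT3G13650 (-3.13 between the untreated groups), AT1G05575 (-3.01) and the steroid reductase family gene AT5G16010 (-2.74).

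Few known brassinosteroid genes could be named on the array, and none of the 7 that could was among the 72, of which 32 have no gene to compare. Of 14 genes of brassinosteroid synthesis and inactivation, 0 could be named on the array. Of 22 genes of perception and signalling, the receptor gene BRL1 (-0.73 ± 0.43 SE at 4 h) and the BES1 partner gene BIM1 (0.52 ± 0.37 SE) were measured. Of 19 brassinosteroid-induced growth genes, 5 were measured, and all 5 were above the WOL control at 4 h, with a median difference of 0.72. None of these genes was called at 4 h in limma (smallest adjusted p = 0.354).

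The expansin-like gene EXLA2 had 656 and 1336 at 4 h, against 239 and 187 in WOL controls, a difference of 2.07 ± 0.44 (SE), and it missed the rule because its 4 h mean did not exceed the 2 h mean. The xyloglucan-remodelling gene XTH19 had 903 and 617 at 4 h, against 604 and 109 in WOL controls (1.46 ± 0.62 SE). In ATHB15 cells EXLA2 fell by 1.94 on the log2 scale (limma adjusted p = 0.0329), with 18.7 and 4.9 in BL cells, against 146, 84.1 and 52 in control cells, and both BL arrays absent. Of its 3 ATHB15 control arrays only 1 was called present. XTH19 was higher there by 1.34 (limma adjusted p = 0.306), with 104 and 184 in BL cells, against 67.2, 36 and 37.1 in control cells. Of the 5 measured growth genes, 2 were higher and 3 lower in ATHB15 BL cells, with EXLA2 the 1 called. The stress-related zinc finger repressor gene STZ, the 1 measured gene of 7 on a stress list, fell by 3.24 in ATHB15 cells (limma adjusted p = 0.00688), with 106.3 to 214.8 in BL cells, against 1056.8 to 2726.5 in control cells. In WOL cells it was 0.81 above the control at 4 h. Neither ATHB15 call held with the UBQ ratio as a covariate, where the 1 remaining call was of a probe set higher in BL cells.

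Most related genes did not meet the rule. Of 7 ATG8 genes measured, ATG8H alone was a member, and the median 4 h difference of the 7 was 0.36. All 7 were lower in ATHB15 BL cells than in control cells, where 52.3% of all probe sets were, and none of them was called. Of 11 tau glutathione transferase genes, GSTU25 alone was a member, and the median 4 h difference was 0.26, with 9 above and 2 below 0. In ATHB15 cells 7 of the 11 were higher and 4 lower in BL, with a median of 0.19 and none called. Of the 11, 3 were absent on all 15 arrays. GSTU22 had a larger 4 h difference than GSTU25, 2.28, with signals of 5196 and 1395 at 4 h, against 937 and 312 in WOL controls, but its means did not climb at every step. Of 4 expansin-like genes, EXLB1 alone was a member, and all 4 were above the control at 4 h (0.89 to 2.07). In ATHB15 cells 1 of the 4 was higher and 3 lower in BL.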

How the data were processed

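Sorted protoplast RNA was labelled after 2-cycle amplification and hybridised to ATH1 arrays, 1 per sample, per the labels' protocols. The deposited files hold linear signal intensity, identical on 342150 of 342150 values in both deposited tables, and every array has the same mean of 250 once 2% of probe sets are trimmed at each end. Per the file headers, the other kind of column used holds detection calls (present, marginal, absent); 45 further columns (probe pair numbers and detection p-values) were not used. For the program behind signals and calls, the name was not given in the sources used here.

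Control probe sets, 64 in number, were left out and intensity was analysed as log2(signal + 16), so differences of dim probe sets are understated. Of 22746 probe sets, 13513 match 1 gene, 503 several and 8730 none in the platform annotation used here, and 38 of the 39 single-gene members were found in the reference gene table. The members and lists were chosen with earlier results of these data known, and the role groups and the ATG8, expansin-like and tau glutathione transferase families were put together after the members were seen, so none of these is independent support. By the rule for named genes, values by array are given for the 20 single-gene members with the largest 4 h difference, the 3 probe sets on each side of the threshold (control and 4 h), the member called in ATHB15 cells, the 5 next by p, and the 5 highest and 5 lowest by ATHB15 change; the others were chosen to cover each role group.

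A limma model (version 3.58.1, in R 4.3.3) held 7 group means over 15 arrays (8 residual and 6.34 prior degrees of freedom), two-sided, adjusted by Benjamini-Hochberg over all probe sets and called under 0.05. The residual spread includes the WOL control and 4 h arrays, in which these probe sets vary most. The fit was also run on simulated data with known changes in the ATHB15 BL group. Most changes of 1 on the log2 scale were missed there, and most larger ones were called. A fold against a group called absent on every array is a lower bound, with each absent array counted at the lowest signal called present there or at its own signal where that is higher. Of 114 genes on 13 fixed lists, 17 could be named on the array. Same-numbered arrays did not deviate together in every group, so replicate numbers were not used as pairs. The correlations of deviations ran from -0.19 to 0.42 between WOL groups and were -0.04 and 0.06 between ATHB15 groups. The highest, 0.42, was that between the WOL control and 4 h groups. Offsets of 1 and 64, other scalings, filters, covariates and left-out arrays were tried.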

Additional observations from a re-analysis of the deposited data

Results flagged for a closer look

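For 13 of the 72 probe sets (18.1%) every ATHB15 BL array was below every ATHB15 control while both 2 h WOL arrays were above both WOL controls, where 2.92% of all probe sets had that pattern. The WOL side of it is favoured by the choice of the probe sets, and nothing is read from the share. Of the 13, 3 were absent on all 5 ATHB15 arrays. For the other 10, the difference of the 2 h change on the log2 scale, ATHB15 minus WOL, was -3.38 for AT2G32190, -2.91 for 251035_at, -2.87 for AT4G24380, -2.74 for 252234_at, -2.56 for AT4G30470, -2.31 for 258921_at, -2.14 for 259442_at, -2.01 for 248607_at, -1.95 for AT5G09960 and -1.92 for AT1G77020. The difference was not tested. The ATHB15 changes behind these values ran from -2.09 for AT4G24380 to -0.62 for 248607_at, none of them called, and the WOL changes from 0.78 for 258921_at to 1.65 for AT2G32190. Groups of 2 or 3 arrays are too small for an outlier test of single arrays.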

How the results depend on the processing

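The number of probe sets that meet the rule was 72 and stayed within 1.5 times under 11 of 20 alternatives, among them offsets of 1 (74) and 64 (56), quantile normalization (88), median centring (100) and no detection call (104). It was 27 with a 4 h difference of at least 1.5, 39 with both 4 h arrays above both controls, 62 on the A arrays alone (4 shared with the 72), 41 on the B arrays alone (8 shared), and 46 without WOL control B and 4 h array A together (6 shared). Leaving out 1 array gave 16 (without control B, 13 shared) to 169 (without 4 h array B, 69 shared). Without control A there were 123 (70 shared), without 1 h array A 43 (30 shared) and without 4 h array A 37 (14 shared). A similar number did not mean the same probe sets. Without 1 h array B there were 52 (34 shared), without 2 h array A 64 (39 shared) and without 2 h array B 52 (37 shared). Leaving out control B and 4 h array A together, and using 1 letter alone, were alternatives chosen after seeing the data.

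For ATHB15 BL against control, the 253 calls over all probe sets became 103 with an offset of 1, 479 with probe sets present on at least 2 arrays, 47 with the ATHB15 arrays alone, 1 with the UBQ ratio and 63 with the GAPDH ratio as covariate, 458 with a variance trend, and 20 (without BL replicate 2) to 160 without 1 ATHB15 array. Leaving out a WOL control or 4 h array, which changes only the shared spread, gave 269 and 381. With the replicate number as a block 75 were called, and 2 of the 72. Of the 72, 3 were called with the presence filter, 0 with the UBQ ratio, 5 with the trend, and 0 to 3 without 1 ATHB15 array. The median of the 72 ran from -0.73 with an offset of 1 to -0.07 with the UBQ ratio. With the UBQ ratio the median of all probe sets was -0.07 too, so the shift of the 72 relative to the array was gone under that alternative. That fit also draws on the WOL arrays that chose the 72, so nothing is concluded from it for ATHB15 cells. With the GAPDH ratio the median of the 72 was -0.60, against 0.02 over all probe sets. Without BL replicate 1 the changes of AT3G16530, 255266_at and 249063_at were -0.21, -0.19 and -0.014, and without BL replicate 2 they were 1.24, 1.32 and 1.63. The 4 h contrast in WOL cells had 0 to 21 calls without 1 array, 21 without 4 h array B. The causes were not tested.

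Dim signals limit the ATHB15 comparison, with 13 of the 72 absent on all 5 arrays. With 2 arrays a group and 32 of 72 probe sets unnamed, neither single courses nor shares by role are firm.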
